A study of Mus musculus with 2 samples.

Results

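The genes described are long noncoding RNAs (lncRNAs) that lie on the strand opposite a protein-coding gene or start beside one in the other direction, measured in embryonic mouse heart. They were chosen by their counts, as the genes that GENCODE M21 classes as antisense or as bidirectional promoter lncRNA and that had at least 50 estimated counts in each of 2 libraries, leaving out 5 genes (Tsix, Kcnq1ot1, Nespas, Airn and Mirg). The choice gave 185 genes of the 2148 measured in these classes and of 42462 gene rows in all. Of them, 160 were annotated antisense and 25 bidirectional. Each was set beside a partner, the protein-coding gene with the most overlap on the opposite strand or, without overlap, the nearest one.

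The study profiled total RNA of heart tissue at embryonic day 16.5 from B6NCrl mice, male and female embryos pooled. The single group has 2 biological replicates with 1 library each. The labels give replicate 2 as hearts of 41 embryos, give no number for replicate 1, and list 1 donor identifier for both. Since nothing shows separate litters, spreads between the libraries may be partly technical. The labels name no transgene, agent or second condition.

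An antisense transcript is read from the DNA strand opposite a coding gene, and a bidirectional promoter lncRNA leaves a promoter that also drives a coding gene the other way. Many mammalian promoters, above all those rich in CpG dinucleotides, start transcription in both directions. Antisense RNAs are known for acting on their neighbours at a few loci, and some serve as precursors of microRNAs. In the heart the best known example is Mhrt, which arises between the genes of the alpha and beta myosin heavy chains.

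The tables held 37160624 estimated counts for replicate 1 and 40360242 for replicate 2. All 8 heart muscle markers were above 1 TPM (the length-corrected share of transcripts), with summed levels of 39127 and 37990 TPM. Lung epithelium markers summed to 914.5 TPM in replicate 1 and 100.6 TPM in replicate 2, with Sftpc at 883 and 96.7 TPM. Thymus markers summed to 23.4 and 70.3 TPM and skeletal muscle markers to 5.22 and 12.6 TPM. Endothelial (182 and 170 TPM), fibroblast (1965 and 1663 TPM) and red blood cell markers (78130 and 65974 TPM) were present in both. In bulk tissue, fewer cells of a type and less RNA per cell cannot be told apart.

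The lncRNAs were few and low. Antisense genes reached 50 counts in 7.77% of 2058 measured genes and bidirectional lncRNAs in 27.8% of 90, against 5.62% of 2776 intergenic lncRNAs (lincRNAs) and 60.3% of 21474 protein-coding genes. All 185 together held 0.137% of the TPM in replicate 1 and 0.134% in replicate 2. Their mean levels ran from 0.515 to 81.8 TPM, with a median of 3.04 TPM and quartiles of 1.52 and 6.2 TPM. At least 10 TPM was reached by 28 genes, and at least 1 TPM in both libraries by 165. The 10 highest genes held 38.8% and 39.2% of the summed level. These levels describe the choice, which used the counts. Just inside the minimum lay 9530026P05Rik (50 and 63 counts), Gm20655 (50 and 53 counts) and Gm15934 (51.1 and 50.2 counts). Just outside it lay 9130221H12Rik (49.2 and 51.0 counts), Gm11423 (54 and 49 counts) and Zfp335os (48.9 and 92.1 counts).

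Gm37401, antisense to the 3' part of the small GTPase gene Rhoa, had the highest mean level, 89.4 TPM in replicate 1 and 74.2 TPM in replicate 2. Its exons span 347 bases, of which 93.4% lie in exons of the other strand. Its nearest coding start is that of Gpx1 (543 and 544 TPM), head-to-head and 630 bases away. C130080G10Rik, which starts beside the cardiac alpha-actin gene Actc1, had 64.4 and 75.2 TPM. Tug1, a long nuclear and cytoplasmic RNA found in many tissues, had 71.8 and 64.6 TPM and the most counts of the set, 9575 and 9691. These 3 genes were close to each other, and their order differed between the libraries. Next came Gm20659 inside Dusp3 (61.3 and 60.0 TPM), Atcayos (51.4 and 57.2 TPM), Gm11175 inside Jund (39.8 and 49.1 TPM), Sp3os (39.6 and 40.8 TPM) and Mhrt (41.6 and 37.9 TPM). All exon bases of Gm20659 and Gm11175 lie in exons of the other strand. Whether reads of the other strand entered the levels of Gm37401, Gm20659 and Gm11175 was not tested. Gm15543, inside Casc1, had 37.01 and 34.62 TPM. Gt(ROSA)26Sor, the locus into which many mouse transgenes are inserted, had 33.4 and 32.7 TPM.

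**Figure D1:**
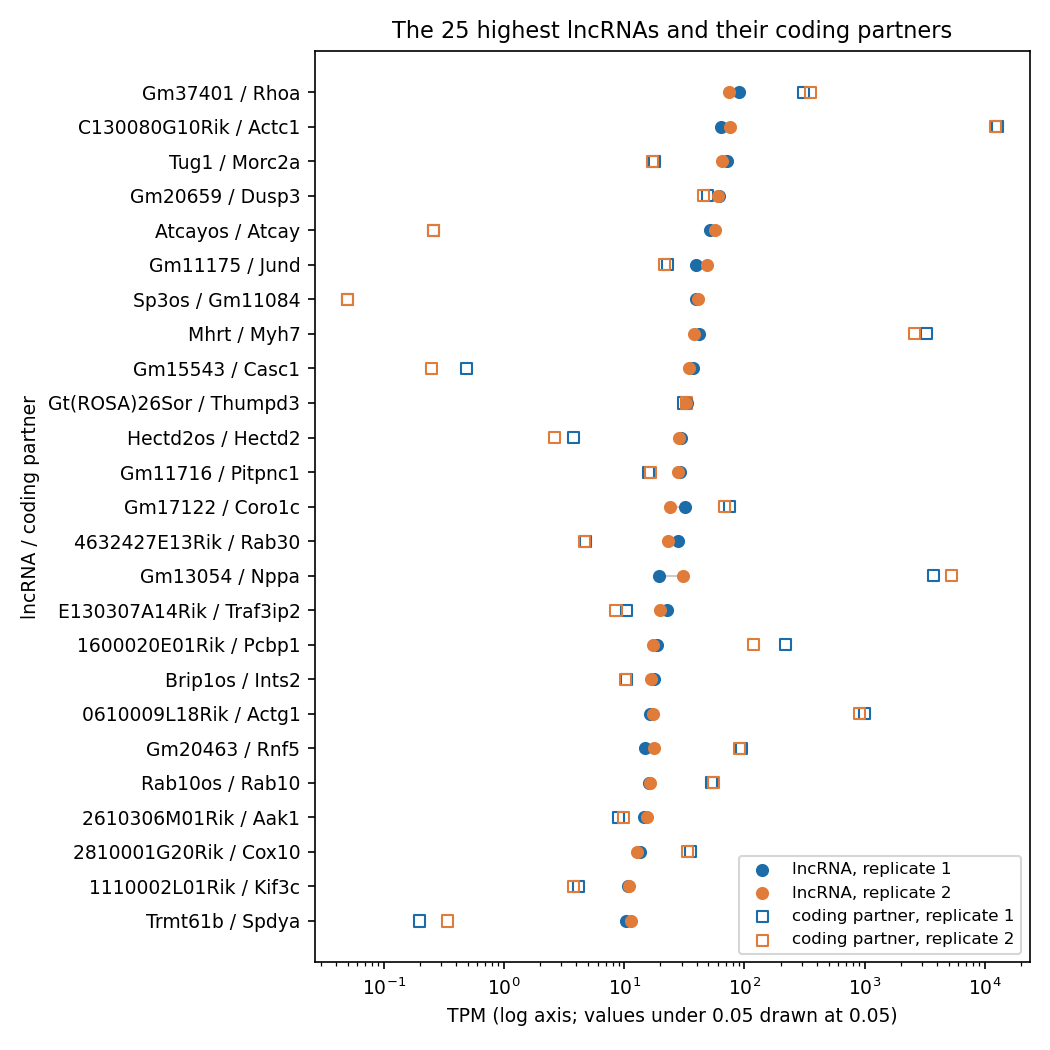
TPM (log axis) of the 25 lncRNAs with the highest mean (filled circles) and of their coding partners (open squares) in replicate 1 (blue) and replicate 2 (orange), with no error bars. The libraries lie close together for most lncRNAs and furthest apart for Gm13054 (19.3 and 31.0 TPM); levels run from 89.4 and 74.2 TPM for Gm37401 down to 10.3 and 11.4 TPM for Trmt61b, while the partners range from 0 for Gm11084 to 12648 TPM for Actc1.

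The 185 lncRNAs had 181 different partners. The partner was at 1 TPM or more in both libraries for 168 of 185 lncRNAs, or 90.8%. The same held for 59.1% of all protein-coding genes, and for the partners of 70.5% of all measured genes of these classes. Over the 181 partners the median level was 19.6 TPM (quartiles 5.78 and 44.7 TPM), against 3.69 TPM over all coding genes and 15.3 TPM over the coding genes that pass the same minimum. Among the 36 lncRNAs with no exon base in an exon of the other strand, 32 had a partner at 1 TPM or more. Of the rest, 149 lncRNAs shared exon bases with the other strand, or 80.5%, against 58.1% of all measured genes of the classes. Whether reads were assigned by strand is not given in the sources used here, and without strand the reads in shared bases cannot be told apart. In 7 lncRNAs some exon bases lie in same-strand exons of another gene, which no strand setting separates.

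By arrangement, 75 lncRNAs were head-to-head with their partner, pointing away from it with the starts nearest (29.2% of all measured genes of the classes were so arranged). In 57 of these the genes overlapped at their starts and in 18 they were separate. A further 47 lay inside the partner, 55 overlapped it tail-to-tail, 4 contained it, 3 overlapped only a same-strand partner and 1 was tail-to-tail without overlap. Starts lay within 1000 bases of each other in 52 head-to-head pairs, against 16.9% of all measured genes of the classes. The partner by overlap was not always the gene with the nearest start, which was another gene for 79 lncRNAs. Counted by nearest start, 94 lncRNAs were head-to-head within 1000 bases (background 25.2%) and 48 within 250 bases. Of these 94, 23 were of the bidirectional class, and 91 had a nearest gene at 1 TPM or more in both libraries, against 76.9% of the 541 measured genes of the classes so arranged.

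**Figure D2:**
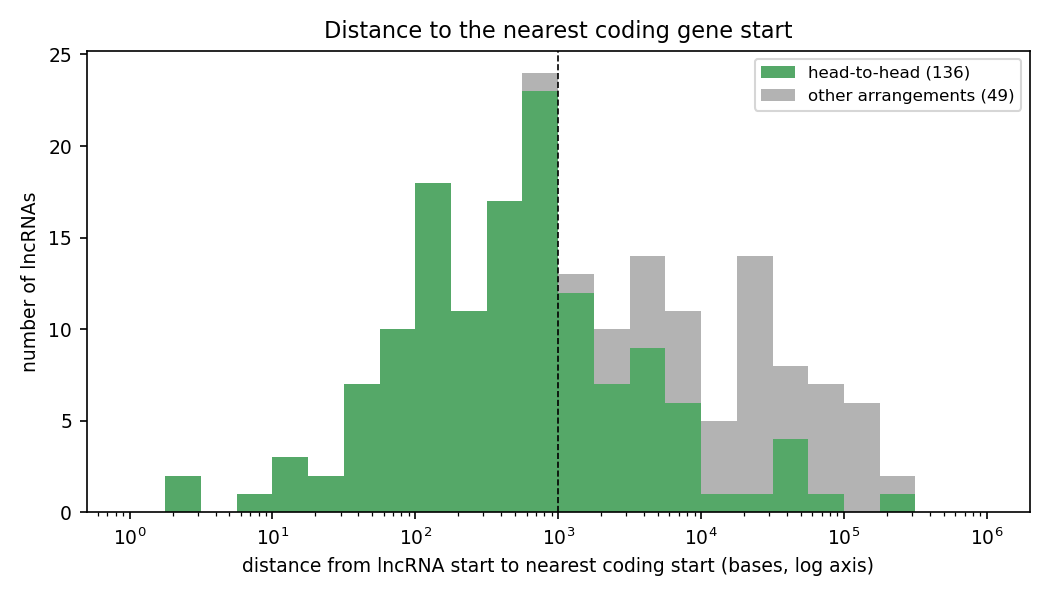
Number of lncRNAs by distance (bases, log axis) between their start and the nearest start of a protein-coding gene. Green bars count the 136 head-to-head lncRNAs and grey bars, stacked on top, the other 49; the dashed line marks 1000 bases, below which 94 head-to-head lncRNAs lie.

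Most lncRNAs lay below their partner. A pair was called only where the direction was shared by replicates 1 and 2 and, in each of them, the authors' TPM interval of the lncRNA stood clear of that of the partner. By this rule 136 of 185 lncRNAs were lower, 34 were higher and 15 were not called. Over all measured genes of the classes, 76.5% were lower and 2.23% higher, and since the 185 were chosen for their counts, nothing is read from the share that was higher. The median log2 ratio of lncRNA to partner, on TPM + 0.1, was -2.61, or 6.09-fold lower (quartiles -4.40 and -0.52). By counts, which are not corrected for length, 30 of the 40 ratios of named pairs moved by over 1.5 times. Levels of lncRNA and partner showed no common order across the 185 pairs (Spearman rho -0.06, Pearson r of log2 values 0.02), which share libraries and are not independent. No p-value was computed, since the smallest p that an exact two-sided test by sign flips allows with 2 libraries is 0.5.

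The median log2 ratio was -2.96 for the 75 head-to-head lncRNAs, -2.50 for the 47 inside the partner and -2.25 for the 55 tail-to-tail ones. It was -2.59 for the 36 with no exon overlap, -2.85 for the 123 with some overlap under 50% and -1.60 for the 26 with 50% or more. These differences were not tested. In the 94 head-to-head pairs taken by nearest start, the lncRNA had a median of 2.66 TPM and the coding gene 23.2 TPM. There 77 lncRNAs were lower, 9 higher and 8 not called, while of the 541 measured genes of the classes so arranged 79.1% were lower and 2.59% higher.

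**Figure D3:**
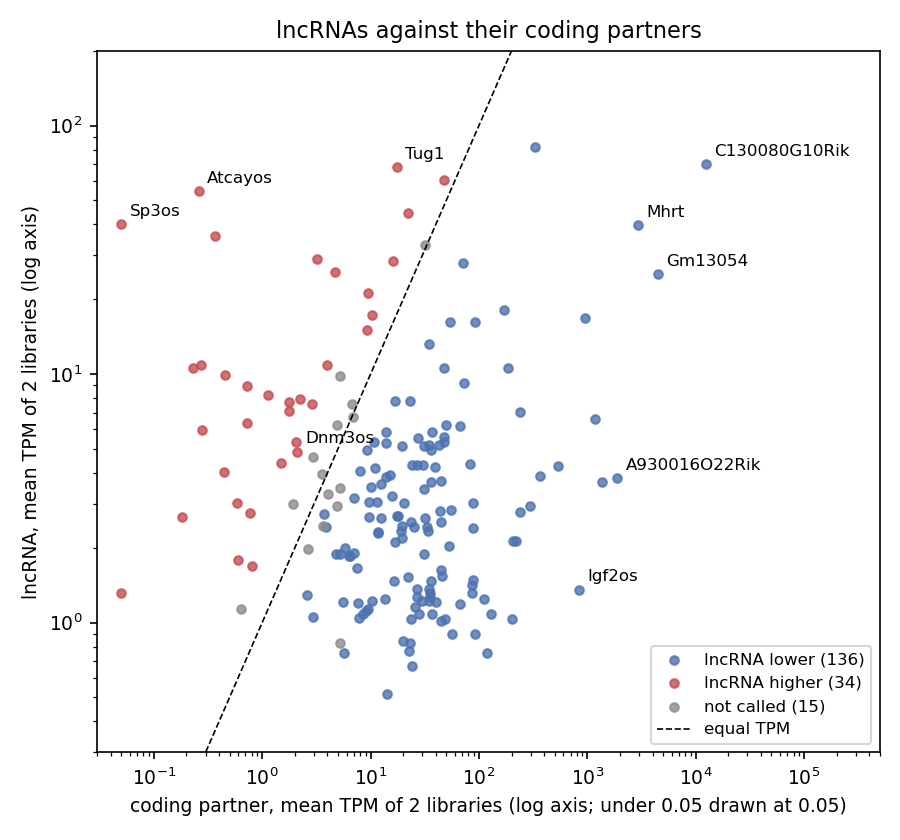
Mean TPM of each lncRNA (vertical, log axis) against that of its coding partner (horizontal, log axis), 1 point per pair, blue for the 136 called lower, red for the 34 called higher and grey for the 15 not called. The dashed line marks equal TPM; the cloud has no slope (Spearman rho -0.06), and the partners of C130080G10Rik, Mhrt and Gm13054 stand at the far right.

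Genes of the contractile apparatus carried some of the widest gaps. Of 152 symbols listed as heart transcription factors, sarcomere and calcium genes, or signalling and matrix genes, 9 were partners. Actc1, the main sarcomeric actin of the heart, had 12648 and 12222 TPM, and C130080G10Rik, whose start lies 787 bases away on the other strand, was 178-fold lower on the TPM + 0.1 scale. C130080G10Rik (chr2:114054335-114064868, plus strand) shares no exon base with the other strand, but 38.7% of its exon bases lie in exons of another gene on its own strand. Its level was spread over several transcripts: that of 1844 nt took 46.0% and 42.8% of it in replicates 1 and 2, and that of 1564 nt took 31.8% and 31.1%.

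Mhrt (chr14:54968678-54974349, plus strand) overlaps the 3' part of Myh7, the beta myosin heavy chain, and starts 1751 bases from Myh6, the alpha chain. Myh7 had 3244 and 2575 TPM and Myh6 818 and 959 TPM. Mhrt was 72.6-fold lower than Myh7, with 811 and 815 counts. Between the libraries Myh7 was lower in replicate 2 by a log2 ratio of -0.33 and Mhrt by -0.14, while Myh6 was higher in replicate 2. Of its exon bases 39.9% lie in exons of the other strand. A single transcript of 828 nt held 100% of the Mhrt level in replicate 1 and 99.2% in replicate 2.

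Gm13054 (chr4:148001091-148004014, minus strand) overlaps the 3' end of Nppa, which encodes the precursor of atrial natriuretic peptide. It had 19.3 TPM in replicate 1 and 31.0 TPM in replicate 2, and Nppa had 3701 and 5284 TPM. Both were higher in replicate 2, by log2 ratios of 0.68 for Gm13054 and 0.51 for Nppa, and the intervals of Gm13054 did not overlap (16.3 to 21.9 and 27.1 to 33.8 TPM). Its exons lie in exons of the other strand over 64.9% of their bases. Between the same libraries Myl7, the atrial myosin light chain gene, went from 2899 to 4102 TPM and Myl2, the ventricular one, from 8176 to 6344 TPM, and their part in the difference was not tested.

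Among transcription factor genes, Meis1 (51.6 and 47.7 TPM) contains Gm16141 (7.37 and 5.12 TPM). Mef2d, a MADS-box factor of muscle, had 33.8 and 35.5 TPM and its tail-to-tail partner 1700113A16Rik 5.65 and 4.70 TPM. Prdm16 had 18.2 and 14.4 TPM and Gm13111, starting 703 bases away, 1.77 and 1.17 TPM. Prox1, a homeobox factor outside these lists, had 14.7 and 13.0 TPM against 5.47 and 5.04 TPM for Prox1os. The lncRNA was the lower gene in each of these 4 pairs. Other transcription factor genes, picked after their values were seen, lay below their lncRNA: Jund below Gm11175, Nr6a1 below Nr6a1os, Sox8 below 2810468N07Rik and Zbtb7b below Gm15417.

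Of the signalling genes, Igf2, an imprinted fetal growth factor, had 950 and 721 TPM, and Igf2os, which overlaps its 5' part, 1.64 and 1.07 TPM. Igf2os was 580-fold lower, the lowest ratio of the set. Pdgfa, a growth factor for mesenchymal cells, had 46.5 and 42.7 TPM and 6330403L08Rik 1.02 and 1.00 TPM. The 5 lowest ratios also include that of Gm13054, given above, and 3 others. A930016O22Rik was 533-fold lower than the muscle creatine kinase gene Ckm (811-fold in replicate 1 and 350-fold in replicate 2), Gm26631 368-fold lower than the cytochrome oxidase subunit gene Cox5a, and Gm14540 181-fold lower than Chchd3, a gene of the mitochondrial inner membrane. Gm12999, picked after its values were seen because all of its exon bases lie in exons of the other strand, was 174-fold lower than the ATP synthase inhibitor gene Atpif1. Of the 9 lncRNAs overlapped in full, 7 were lower than their partner and 2, Gm20659 and Gm11175, higher, with a median 2.57-fold lower. Gm26631 is of the bidirectional class, and its nearest coding start is that of Fam219b (10.6 and 10.6 TPM), 101 bases away.

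Among the 34 lncRNAs above their partner, 16 had a partner under a mean of 1 TPM. Tug1 was 3.87-fold higher than Morc2a, a chromatin-associated ATPase gene (18.01 and 17.06 TPM), with starts 482 bases apart. Its 2 largest transcripts by share differed somewhat between the libraries: ENSMUST00000153313 held 51.6% and 59.5% of the level and ENSMUST00000144852 33.5% and 23.3%. Atcayos was 151-fold higher than Atcay, a gene of neurons with 0.26 TPM in each library. Atcayos also contains Nmrk2, a nicotinamide riboside kinase gene of muscle, which had 12.2 and 9.50 TPM. Gm15543 was 79.0-fold higher than Casc1 (0.49 and 0.25 TPM), Gm11837 34.6-fold higher than Necab1 (0.11 and 0.35 TPM) and Trmt61b 30.2-fold higher than Spdya (0.20 and 0.34 TPM). Trmt61b carries the symbol of a tRNA methyltransferase gene but is classed antisense in M21. Nr6a1os was 17.9-fold higher than the nuclear receptor gene Nr6a1 (0.49 and 0.42 TPM). By posterior mean TPM the Nr6a1os fold was 7.98 and that of Gm15543 over Casc1 52.1. Hectd2os, with 29.6 and 28.6 TPM, was 8.93-fold higher than the ubiquitin ligase gene Hectd2.

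For several of these lncRNAs the partner, chosen by the most overlap, was under 1 TPM. Another gene, the one with the nearest start, was above it. Sp3os overlaps most with Gm11084, which is listed at 0 in both libraries. It also overlaps the transcription factor gene Sp3 (29.1 and 29.9 TPM) head-to-head, with starts 1022 bases apart. Tmem147os overlaps Gapdhs, a sperm glycolytic enzyme gene (0.18 and 0.38 TPM), and starts 39 bases from Tmem147 (146 and 149 TPM). Mccc1os overlaps Ccdc144b (0.02 and 0 TPM) and its nearest start is that of Mccc1, a mitochondrial carboxylase subunit gene, at 49.7 TPM in the mean. Gt(ROSA)26Sor was near its partner Thumpd3 (30.9 and 32.8 TPM) and near Setd5 (36.8 and 32.2 TPM), whose start lies 32 bases away, and neither pair was called.

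Of 4 high lncRNAs separated from a head-to-head partner by less than 1000 bases, and of 3 others chosen after their values were seen, the DNA between the starts is shown, since both genes of a pair start at its ends. Tug1 and 1600020E01Rik overlap their partners at the start and have no such stretch. Sequences are those of RefSeq windows on GRCm38.p6, read along the strand of the lncRNA, so that the coding gene starts to the left and the lncRNA to the right. Capitals mark matches on either strand to CCAAT, to the GC box GGGCGG, to the ETS core CCGGAAG, to the E-box CACGTG or to the CArG box, the site known for binding serum response factor. The CArG box was added to the list after these sequences were seen. Overlapping matches run together, and a match is a description of letters only.
C130080G10Rik from Actc1 (chr2:114054146-114054334, plus strand): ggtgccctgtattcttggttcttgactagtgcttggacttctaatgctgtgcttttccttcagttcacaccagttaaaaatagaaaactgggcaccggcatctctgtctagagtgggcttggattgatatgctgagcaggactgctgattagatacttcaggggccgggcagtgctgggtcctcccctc
4632427E13Rik from Rab30 (chr7:92741469-92741602, minus strand): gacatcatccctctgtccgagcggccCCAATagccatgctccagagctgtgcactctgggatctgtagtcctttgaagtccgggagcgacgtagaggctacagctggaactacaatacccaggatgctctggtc
0610009L18Rik from Actg1 (chr11:120348543-120348677, plus strand): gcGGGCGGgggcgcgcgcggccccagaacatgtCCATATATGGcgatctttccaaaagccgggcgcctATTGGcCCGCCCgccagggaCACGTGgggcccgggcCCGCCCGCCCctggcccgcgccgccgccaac
2610306M01Rik from Aak1 (chr6:86849441-86849516, minus strand): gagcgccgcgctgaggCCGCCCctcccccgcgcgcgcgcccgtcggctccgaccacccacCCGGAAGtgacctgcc
Brip1os from Brip1 (chr11:86201194-86201369, plus strand): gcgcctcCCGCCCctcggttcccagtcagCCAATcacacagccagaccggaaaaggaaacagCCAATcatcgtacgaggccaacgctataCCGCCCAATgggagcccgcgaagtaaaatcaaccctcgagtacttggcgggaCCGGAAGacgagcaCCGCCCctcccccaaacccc
2810001G20Rik from Cox10 (chr11:64079469-64079483, plus strand): gtgaggcgggacttc
2810013P06Rik from Ankrd11 (chr8:123042278-123042465, plus strand): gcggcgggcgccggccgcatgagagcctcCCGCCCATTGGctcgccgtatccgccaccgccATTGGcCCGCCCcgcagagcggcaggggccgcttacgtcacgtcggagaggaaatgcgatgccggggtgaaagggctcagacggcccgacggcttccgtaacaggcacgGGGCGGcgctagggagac

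The stretch beside C130080G10Rik is the 189 bases next to its start, of 786 between the genes, and holds no match to these motifs. Between 0610009L18Rik and Actg1, the cytoplasmic gamma-actin gene, lie 135 bases with 19 CpG, 4 GC box matches and 1 CArG box match. Actg1 had 986 and 902 TPM and 0610009L18Rik 16.3 and 17.3 TPM, 55.9-fold lower. The 134 bases between 4632427E13Rik and Rab30, a small GTPase gene of the Golgi, hold 1 CCAAT match and no GC box. Here the lncRNA was the higher gene, at 28.1 and 23.3 TPM against 4.75 and 4.66 TPM for Rab30, a 5.35-fold difference. The 76 bases between 2610306M01Rik and the kinase gene Aak1 hold 1 GC box and 1 ETS core. The lncRNA had 14.7 and 15.6 TPM and Aak1 8.89 and 9.82 TPM, 1.61-fold apart.

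Brip1os and Brip1, a DNA helicase gene, are separated by 176 bases with 3 CCAAT and 3 GC box matches. Brip1os had 17.8 and 16.9 TPM and Brip1 4.09 and 4.75 TPM, and Brip1os also contains Ints2, an Integrator complex subunit gene (10.4 and 10.3 TPM). Only 15 bases lie between 2810001G20Rik (13.6 and 12.8 TPM) and Cox10, a gene of heme A synthesis (35.6 and 33.7 TPM). The 188 bases between 2810013P06Rik and Ankrd11 hold 26 CpG. These 2 genes had 9.04 and 10.6 TPM and 12.5 and 11.2 TPM, and the pair was not called. In the 6 pairs whose stretch is shown whole, the coding gene ran from 55.9-fold higher than the lncRNA to 5.35-fold lower.

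RefSeq windows of 300 bases, from 250 before to 50 after a start, were matched to 65 lncRNAs and 95 partners. The median window of the lncRNAs held 23 CpG and that of the partners 22, against 7 over all 32851 windows. GC content was 62.7% and 63.7%, against 52.7%. A GC box was found in 64.6% of lncRNA windows and 66.3% of partner windows, against 35.7% of all windows. A TATA box (TATAAA, either strand) was found in 6.15% and 8.42%, against 13.6%, and CCAAT in 33.8% and 34.7%, against 37.4%. The ETS core was in 15.4% of lncRNA windows and 28.4% of partner windows, against 8.86%. The lncRNAs were chosen by their counts, while the background of all windows was not limited to expressed genes. Among the 26 windows of lncRNAs head-to-head within 1000 bases of their partner, the median was 28.5 CpG, a GC box was in 80.8% and a TATA box in none. In the other 39 lncRNA windows these values were 17 CpG, 53.8% and 10.3%. In the 28 windows of the partners so arranged with their lncRNA they were 26 CpG, 82.1% and 7.14%. Windows of head-to-head genes can overlap, so lncRNA and partner windows are not independent, and these shares were not tested.

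Dnm3os, which lies inside the dynamin gene Dnm3 on the other strand, is the host of 2 microRNA genes with known roles in mesenchyme. It had 4.94 and 4.81 TPM and 1033 and 1117 counts, and shares no exon base with the other strand and 2.77% with other genes on its own. Dnm3 had 2.60 and 1.59 TPM, 2.33-fold lower. The mature microRNAs of Mir199a-2 and Mir214 lie in its exons, and their sequences from RefSeq are shown with the seed (bases 2 to 8) in capitals. No 2 of these 4 seeds are the same. The libraries held RNA over 200 nt, so the mature microRNAs were not measured.
mmu-miR-199a-5p: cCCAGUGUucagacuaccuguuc
mmu-miR-199a-3p: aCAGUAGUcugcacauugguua
mmu-miR-214-5p: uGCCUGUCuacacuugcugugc
mmu-miR-214-3p: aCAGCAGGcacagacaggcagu

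The 68 bases before the Dnm3os start (chr1:162217555-162217622, plus strand, RefSeq, GRCm38.p6) also hold a CArG box match, in capitals, which begins 33 bases before the start.
Dnm3os: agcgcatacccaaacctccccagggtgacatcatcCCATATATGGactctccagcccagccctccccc

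A CArG box was found in 535 of all 32851 windows, or 1.63%, and in 3 of the 65 lncRNA windows, those of Dnm3os and 0610009L18Rik among them. It was looked for after the sequences were seen, so nothing is read from this share.

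A list of 48 symbols, meant as known antisense RNAs, also holds genes classed as lincRNA and the coding gene Bdnf. Of the 48, 18 were in these classes and 4 reached the minimum: Tug1, Mhrt, Dnm3os and Cep83os. Others on the list were expressed but are classed in M21 as processed transcripts, among them Hand2os1 (147 and 142 TPM) and Zfas1 (33.2 and 31.4 TPM). Cep83os (4.95 and 4.92 TPM) starts 78 bases from the centriole gene Cep83 (8.52 and 9.92 TPM). Hoxb3os (37.5 and 47.1 counts) and Hotairm1 (25.5 and 39.1 counts), of the Hox clusters, lay under the minimum. Wt1os, antisense to the gene of an epicardial transcription factor, had 26 and 19 counts. Tbx3os1, beside a T-box gene of the conduction system, had 10.5 and 2 counts. Of 258 measured symbols of the antisense and bidirectional classes ending in os, 24 were in the set, against 185 of all 2148 measured genes. Of these 24, 12 were lower than their partner and 10 higher. Over the whole set 73.5% were lower and 18.4% higher, and over all measured genes of the classes 76.5% and 2.23%. Nothing is read from the counts of os symbols.

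The libraries differed little for these genes. Of 185 lncRNAs, 171 (92.4%) had levels within 1.5-fold of each other, against 92.5% of all 13838 genes of any class that pass the same minimum. The SD of a single library, from the log2 ratios, was 0.23 for the lncRNAs and 0.23 for coding genes with the same minimum. The median count was 113 for the lncRNAs and 1106.5 for those coding genes, so these SDs are not at like counts. A gene was called different where the log2 ratio of TPM + 0.1 exceeded 1 in size and the intervals did not overlap. This called 2 lncRNAs, or 1.08%, against 2.85% of all genes with 50 counts and 1.98% of coding genes. Among the 166 lncRNAs and 4062 coding genes with mean counts of at most 559, 1.20% and 4.43% were called. There the SD of a single library was 0.24 for the lncRNAs and 0.34 for the coding genes.

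Both called lncRNAs were higher in replicate 2, a direction called for 2.07% of all genes with 50 counts, while 0.773% were called higher in replicate 1. Dgkeos, head-to-head with the diacylglycerol kinase gene Dgke, had 3.98 TPM in replicate 1 and 11.1 TPM in replicate 2 (87 and 307 counts, log2 ratio 1.46). Dgke had 6.5 and 6.89 TPM, so that Dgkeos was the lower gene in replicate 1 and the higher in replicate 2. A Dgkeos transcript of 1943 nt was listed at 0% of the level in replicate 1 and 14.95% in replicate 2, while that of 624 nt took 54.5% and 48.2%. A930016O22Rik, inside the span of Ckm, had 2.18 and 5.43 TPM (64.9 and 179 counts, log2 ratio 1.28), while Ckm had 1849 and 1937 TPM. Skeletal muscle markers were also higher in replicate 2, with a sum of 5.22 against 12.6 TPM, as were thymus markers, with 23.4 against 70.3 TPM, and their part in either difference was not tested. With 1 library per replicate, a difference between pools and one of library preparation cannot be told apart.

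Log2 ratios of lncRNA and partner had the same sign in 118 of 179 pairs with nonzero ratios (Spearman rho 0.25, Pearson r 0.15, across pairs that share both libraries and their scaling). Among the 36 lncRNAs without exon overlap the share was lower, 57.1% against 65.9% over all pairs. The median log2 ratio was -0.040 for the lncRNAs and -0.055 for all genes with 50 counts, both on the side of replicate 1. The share for lncRNAs set beside coding genes other than their partners was not computed, so nothing is read from these shares. In several pairs the partner's ratio was the larger one. Pcbp1, the gene of an RNA-binding protein, had 221 TPM in replicate 1 and 118 TPM in replicate 2, while 1600020E01Rik, starting 74 bases away, had 18.8 and 17.3 TPM. The integrin gene Itga9 had 7.26 and 2.48 TPM, and its partner Gm2415 had 3.46 and 2.43 TPM. This pair was picked after its values were seen.

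**Figure D4:**
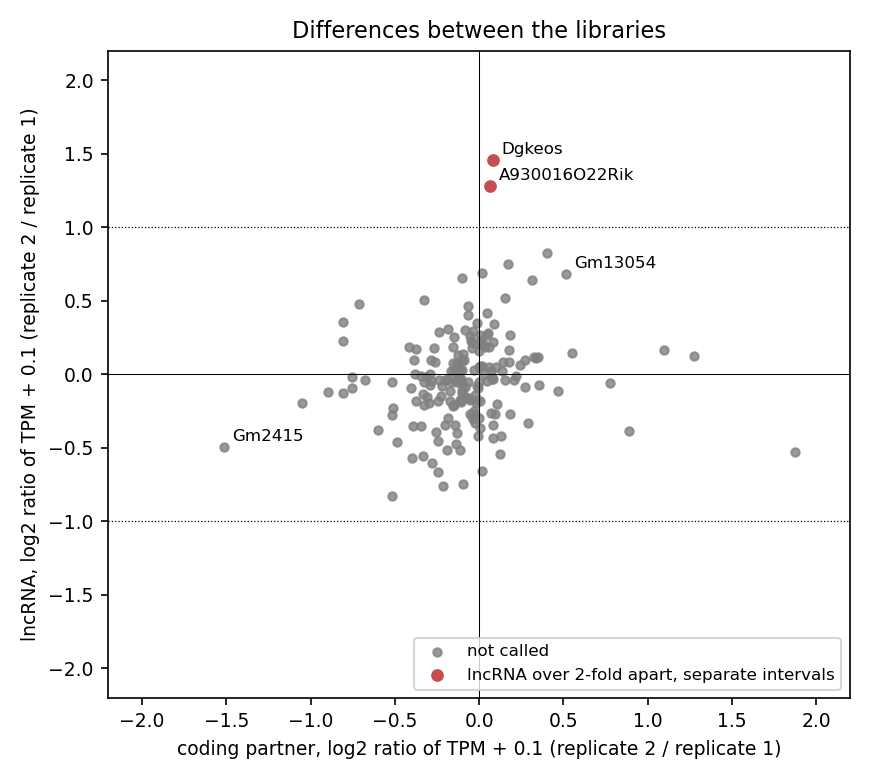
Log2 ratio of TPM + 0.1, replicate 2 over replicate 1, for each lncRNA (vertical) and its coding partner (horizontal), 1 point per pair; dotted lines mark 2-fold differences. Dgkeos (1.46) and A930016O22Rik (1.28), in red, stand above the upper dotted line with partners near 0, and the other 183 lncRNAs lie within 2-fold.

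Transcript tables listed 375 transcripts of these genes, 1 transcript each for 107 genes and up to 13 for the others. Of the 78 genes with several transcripts, 66 had the same main transcript in both libraries, and in 12 it held over 90% of the level in both. The main transcript of Gt(ROSA)26Sor, of 1181 nt, held 77.7% and 85.8%. In Dnm3os the transcript of 7926 nt held 67.4% and 67.8% and that of 7928 nt 32.6% and 32.2%, which differ by 2 bases in length.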

How the data were processed

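Per the labels, total RNA of 2 pools of heart was extracted with mirVana, RNA over 200 nt was kept, and 10 ng went into each library with spike-ins. The labels list a manual of the SMARTer Ultra Low kit. Per the deposited notes, the authors quantified reads on mm10 with annotation M4. For aligner, quantifier and strand setting, nothing is stated in the sources used. The deposited tables give estimated counts (expected counts and posterior means, not normalized), TPM computed by the authors over all rows, interval bounds of TPM whose level is not stated, and the percent of a gene's TPM that each transcript holds. Short genes and genes with shared bases carry more error than their counts show.

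Classes, symbols and coordinates came from GENCODE M21 on GRCm38 by identifier (42462 of 43346 Ensembl rows matched). Partners were chosen by gene span, ties by start distance. Ratios used TPM + 0.1, and values in pairs are replicates 1 and 2 (n = 2). Expected counts were rounded for edgeR 4.0.16 and DESeq2 1.42.0, used for scaling only (R 4.3.3). Scripts ran in Python 3.11.15. The code for arrangement and exon overlap was tested on made-up genes. A simplified 2-fold rule, with intervals other than the authors', was tried on simulated counts. The call of lncRNA against partner was not simulated. Named lncRNAs were the highest in TPM and counts, those with extreme ratios, those called between libraries, those with listed partners or known symbols, those at the minimum, and those with starts near a coding start; the single values of some of them are not given here. The set and all lists were chosen with earlier results of these data known. Intervals were given for each library by itself, so they cover counting and assignment error only and not the spread between libraries. Alternatives were other count minima, posterior means, counts in place of TPM, other scalings and pseudocounts, single libraries, and the partner by nearest start.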

Additional observations from a re-analysis of the deposited data

How the results depend on the processing

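The number of lncRNAs was 298 at a minimum of 25 counts and 98 at 100 counts, against 185, and 203 to 215 with a single library. Their median level was 3.13 TPM by posterior means and 3.08 to 3.14 TPM with a single library, against 3.04 TPM. The number below their partner ran from 136 to 156 and the number above from 26 to 38 over counts, posterior means, single libraries and the partner by nearest start. Of lncRNAs without exon overlap 63.9% were below their partner, against 73.5% of all. The median log2 ratio was -3.39 by counts, not corrected for length, and -2.62 to -2.54 with a single library. By counts the direction of a called pair turned for Gm20659 (-2.58), Gm11175 (-1.65), Gm11716 (-3.17) and 2610306M01Rik (-0.92). Of 160 recomputed ratios of 40 named pairs 149 kept their call. Some of these 149 changed sign near 0 in uncalled pairs. Gt(ROSA)26Sor against Thumpd3 went from 0.053 to -0.004 without replicate 1, and Dgkeos against Dgke from -0.007 to 0.007 by posterior mean TPM. Dgkeos against Dgke gave -0.69 in replicate 1 and 0.68 in replicate 2. TMM-scaled CPM, size factors and a pseudocount of 1 each called 2 lncRNAs between libraries, as TPM did. With at least 100 counts in each library 0 lncRNAs were called, since both called genes have fewer in replicate 1, and with no minimum 21 of all 2148 were. The share of pairs with the same sign was 57.1% without exon overlap and 61.0% by nearest start, an alternative added after seeing the data, against 65.9%. No paired analysis was possible because the study has 1 group. Depth limits the set: a gene at the minimum rests on about 50 counts.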
